A study of Mus musculus with 8 samples.

Results

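The genes described here are 10 parts of the oxygen-sensing pathway and of its output outside glycolysis: Hif1a, Epas1, Vhl, Egln1, Egln3, Vegfa, Bnip3, Adm, Ankrd37 and Car9. They were chosen by name, with earlier results of these data known, and each matched 1 of the 52778 features in the deposited expression table. The libraries were made from ventricles of C57BL/6 mouse embryos at embryonic day 11.5, without any drug or other treatment. The 4 control libraries came from embryos labelled as wild type, and the 4 mutant libraries from homozygous embryos in which CRISPR/Cas9 had removed 7 bases from exon 3 of Atf4, a frameshift with a premature stop that is not restricted to the heart. The treatment labels of the mutants read ATF4 global knockout, although their genotype field reads wild type, so the groups rest on the sample titles. The libraries of a group are described as biological replicates, and nothing says which embryos shared a litter. Expression is given as TPM, a transcript abundance scaled for transcript length and library size, and the read depth behind each value is unknown.

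Cells sense oxygen through the hypoxia-inducible factors. The alpha subunits HIF-1alpha (Hif1a) and HIF-2alpha (Epas1) are made continuously. When oxygen is present, prolyl hydroxylases (Egln1 and Egln3) mark them, and the von Hippel-Lindau protein (Vhl) binds the mark and directs their destruction. When oxygen falls, the alpha subunits persist, pair with ARNT and switch on genes for blood vessel growth, mitophagy and pH control, together with the hydroxylases themselves, which closes a feedback loop. This control acts mainly on the proteins, so the mRNA of a HIF subunit does not report its activity. The embryonic heart grows at low oxygen, and mice without Vegfa or Hif1a have defects of heart and vessels.

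Promoter stretches are shown first, searched for the core letters that HIF binds, ACGTG or GCGTG. The members printed are those with the largest log2 fold changes between the genotypes. Whether the letters bear on these differences was not tested. Each window ran from 250 bases before to 50 bases after an annotated start, in RefSeq's GRCm38.p6 sequences, and 9 of the 10 members had a window (Epas1 had none in the table used). For 7 of the 9 a window lay at the 5′ end of the gene span given below. The Hif1a window was placed at base 73907867, which is 6543 bases inside its span, and the Ankrd37 window at base 45999850, which is 564 bases inside, so the outermost starts of these genes were not searched. Both letter strings were searched on both strands, where a match on the opposite strand reads CACGT or CACGC and a CACGTG counts on each strand. The stretches below are written 5′ to 3′ on the strand of the gene, with matches in capitals.

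Egln1, chr8:124949302-124949396, minus strand: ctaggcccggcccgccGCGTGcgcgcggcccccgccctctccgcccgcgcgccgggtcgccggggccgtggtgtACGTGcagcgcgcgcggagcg
Egln3, chr12:54204083-54204119, minus strand: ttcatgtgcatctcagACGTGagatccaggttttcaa
Bnip3, chr7:138909521-138909639, minus strand: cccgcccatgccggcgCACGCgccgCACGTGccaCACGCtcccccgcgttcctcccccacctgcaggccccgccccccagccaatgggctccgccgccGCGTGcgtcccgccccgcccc
Ankrd37, chr8:45999851-45999872, minus strand: atgtcagtgtttgggtACGTGa

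The window of Bnip3 held 5 matches, 4 of them beginning between 117 and 99 bases upstream of the start. Ankrd37 held 4 around its inner start, of which the one nearest to that start is printed. Hif1a held 3 around its inner start, Egln1 and Adm held 2 each, and Egln3 and Car9 held 1 each. Vhl had none, and Vegfa had none at its first start and 2 at the second, 7214 bases inside the span. These letters are common: 43.8% of the 32851 promoter windows held at least 1 match, 20.6% at least 2 and 1.66% at least 5. A string for ATF4 bound with a C/EBP partner, TGATGNAA, was found in 0 of the 9 members with a window and in 3.97% of all windows. A match is a description of the letters and not of binding.

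No member passed the test between the genotypes: 0 of 10 had an adjusted p below 0.05 (limma on log2(TPM + 1), Benjamini-Hochberg over 15545 tested genes), where 0.0386% of all tested genes did. At an unadjusted p below 0.05 stood 3 members, Egln1, Egln3 and Bnip3, all with higher means in the mutants, and 2.65% of all tested genes were higher at that level. This count was 0 without control 3, 0 without mutant 3, 1 without mutant 2 and 0 with the replicate number as a block. Mean levels were higher in the mutants for 8 of the 10 members, against 48.2% of all tested genes. The median log2 fold change was 0.11 over the members and -0.0033 over all tested genes. The 8 include Vhl and Car9, at log2 fold changes of only 0.011 and 0.021. Without control 3 and mutant 3 together, a choice made after the values were seen, the count was 6. Several members varied together by library, so their directions are not separate observations. In no member did the 4 mutant values clear the 4 control values, which 3.68% of tested genes did in either direction. The Atf4 transcript itself ranged from 105 to 121 TPM in controls and from 148 to 185 TPM in mutants (log2 fold change 0.57, adjusted p of 0.0430), without overlap. Its call was lost in 14 of 20 alternatives, among them the replicate block (adjusted p of 0.250) and leaving out any single library other than mutant 4 (0.0985 to 0.179), with log2 fold changes of 0.51 to 0.62 over all 20.

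**Figure D1:**
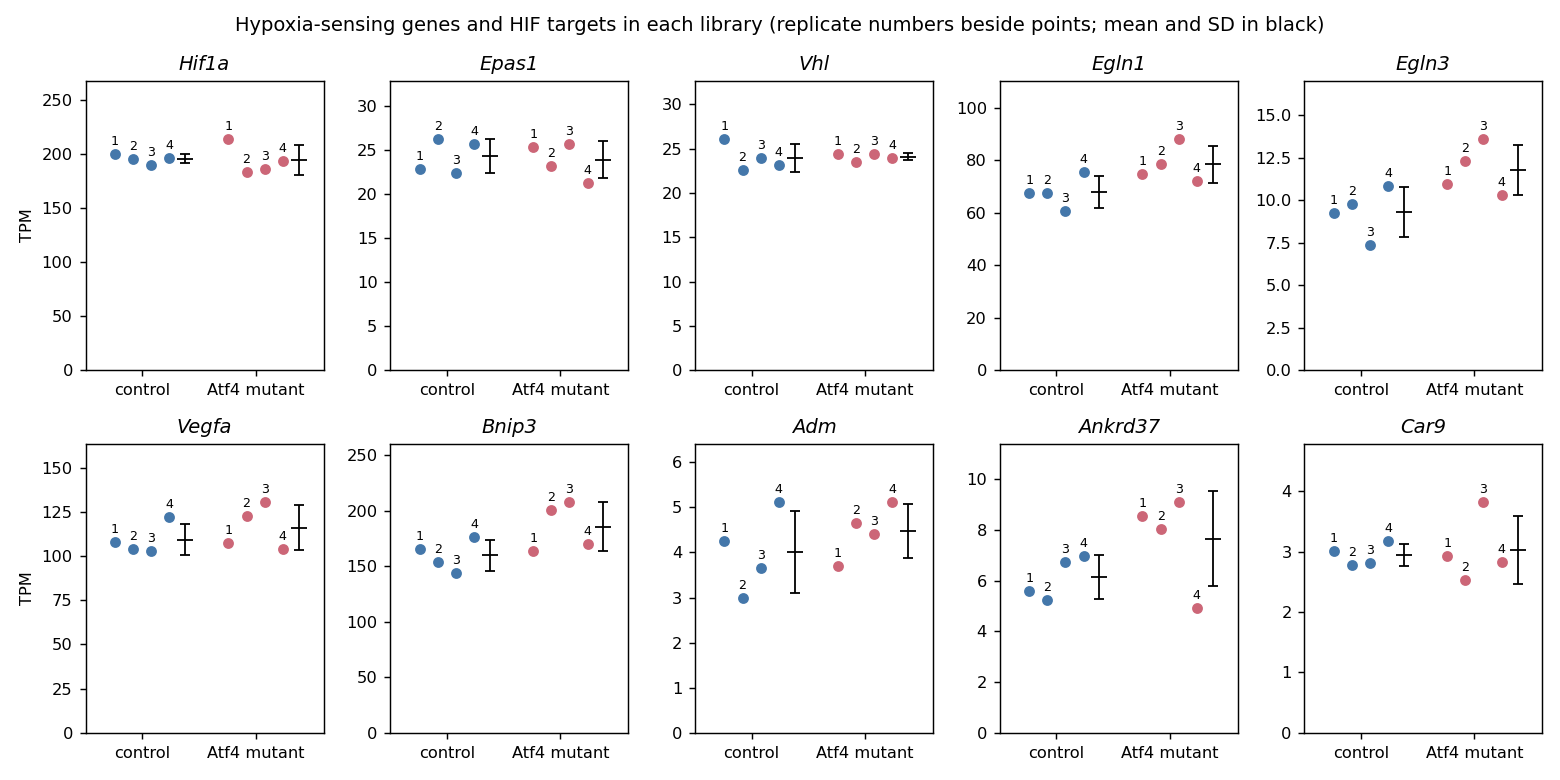
TPM of the 10 genes in each library, controls on the left and Atf4 mutants on the right of each panel, with replicate numbers beside the points and the mean ± SD (n = 4) in black. The groups overlap in every panel, and Egln1, Egln3 and Bnip3 have all 4 mutant points above the control mean.

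The alpha subunits were examined first. Hif1a (chromosome 12, bases 73901324 to 73947554, GRCm38) was the most abundant of the 10 members, with a mean of 195 TPM over the 8 libraries, above 95.7% of tested genes. Controls 1 to 4 held 201, 196, 190 and 197 TPM, and mutants 1 to 4 held 214, 184, 187 and 194 TPM. The highest and the lowest values both lay in mutants, and the groups overlapped. The log2 fold change was -0.013, with a 95% interval from -0.12 to 0.096 (unadjusted p of 0.797, adjusted p of 0.987).

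Epas1 (chromosome 17, bases 86753864 to 86833410), the subunit best known from endothelial cells, held 22.8, 26.3, 22.5 and 25.8 TPM in controls 1 to 4. Mutants 1 to 4 held 25.4, 23.2, 25.8 and 21.3 TPM, across much the same range as the controls. The difference on the log2 scale was -0.025 (95% interval -0.19 to 0.15, adjusted p of 0.984). Endocardial and endothelial markers, 10 of 10 of them detected at a mean of at least 1 TPM, summed to 860 to 956 TPM in controls and 825 to 920 TPM in mutants. The highest library for these markers and for Epas1 was control 2, and the lowest was mutant 4. Their part in the Epas1 values was not tested beyond the use of the marker mean as a covariate, which left its log2 fold change at -0.015 (adjusted p of 0.983). In bulk tissue, fewer cells of a type and less RNA per cell cannot be told apart.

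Set against each other within a library, Epas1 mRNA stood at 11.4% to 13.4% of the Hif1a level in controls and at 11.0% to 13.8% in mutants. The means were 12.4% ± 0.985 and 12.3% ± 1.22 (n = 4 each, SD; exact permutation, two-sided p of 0.886). Other subunits and partners were measured beside them. Arnt, the constitutive partner of both alpha subunits, held 34.5 ± 0.863 TPM in controls and 33.3 ± 2.19 TPM in mutants. Hif3a, whose products can restrain the other subunits, held 41.0 ± 3.38 and 42.4 ± 3.25 TPM. Hif1an, the asparagine hydroxylase that blocks coactivator binding, held 43.7 ± 1.21 and 43.4 ± 2.84 TPM (SD, n = 4 in each group). Arnt2, a paralog of Arnt named here after its values were seen, was low and spread more widely, from 2.80 to 5.90 TPM in controls and from 2.68 to 5.11 TPM in mutants (log2 fold change -0.17, adjusted p of 0.945).

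Vhl (chromosome 6, bases 113623994 to 113631634), the receptor that delivers hydroxylated HIF to the ubiquitin system, was the steadiest member in the mutants. Controls 1 to 4 held 26.1, 22.6, 23.9 and 23.1 TPM, and mutants 1 to 4 held 24.4, 23.5, 24.4 and 24.0 TPM. All mutant values lay inside the range of the controls, and the log2 fold change was 0.011 (95% interval -0.10 to 0.13, adjusted p of 0.991).

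The prolyl hydroxylases differed more between the groups. Egln1 encodes PHD2, the main oxygen sensor, and lies on chromosome 8 from base 124908587 to base 124949254. Its controls 1 to 4 held 67.5, 67.6, 60.5 and 75.3 TPM, and its mutants 1 to 4 held 74.9, 78.5, 88.1 and 72.2 TPM. All 4 mutants lay above the control mean of 67.7 ± 6.03 TPM and 2 above every control, with control 4 among the mutant values. The mutant mean was 78.4 ± 6.95 TPM (n = 4 each, SD). This log2 fold change of 0.21 (standard error 0.075, 95% interval 0.039 to 0.38) had an unadjusted p of 0.0211 and an adjusted p of 0.800.

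Egln3 encodes PHD3, a hydroxylase whose own gene is strongly induced by HIF, and lies on chromosome 12 from base 54178981 to base 54203874. It held 9.23, 9.78, 7.35 and 10.8 TPM in controls 1 to 4 and 10.9, 12.3, 13.6 and 10.3 TPM in mutants 1 to 4. Mutants 1, 2 and 3 lay above every control, and mutant 4 lay below control 4. Its log2 fold change of 0.32 was the largest among the members (standard error 0.12, 95% interval 0.055 to 0.58, unadjusted p of 0.0229, adjusted p of 0.800). Control 3 and mutant 3 held the extremes of both hydroxylases. Without these libraries, a choice made after the values were seen, the log2 fold changes were 0.10 for Egln1 and 0.15 for Egln3 (adjusted p of 0.977 for both).

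The third hydroxylase of the family, Egln2 (PHD1), held 53.1 ± 4.06 TPM in controls and 49.0 ± 3.80 TPM in mutants. Its log2 fold change was -0.11 (unadjusted p of 0.136, adjusted p of 0.865). The ratio of Egln3 to Egln1 was 13.7% ± 1.08 in controls and 15.0% ± 0.662 in mutants (n = 4 each, SD; exact permutation, two-sided p of 0.0857, adjusted over the 3 ratios 0.129). On the log2 scale this was 0.14, and 0.082 without control 3 (exact permutation p of 0.200). The smallest p that 4 against 4 libraries allow is 0.0286.

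**Figure D2:**
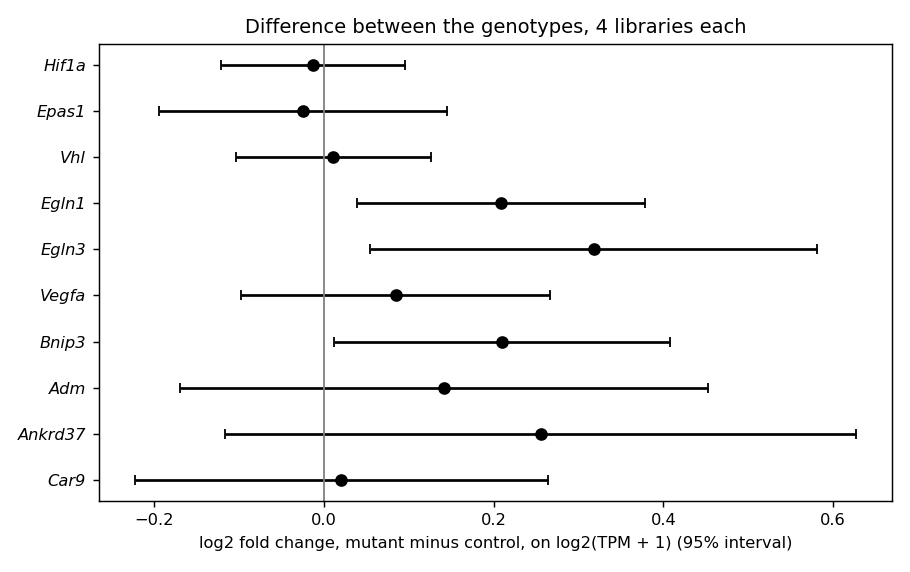
Log2 fold change of each gene, mutant minus control, on the log2(TPM + 1) scale, with points for the estimate and bars for its 95% interval (limma, 4 libraries per group). The intervals of Egln1, Egln3 and Bnip3 lie above 0 before adjustment for multiple testing, and those of the other 7 genes include 0.

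Among the targets, Vegfa and Adm encode secreted signals to vessels. Vegfa (chromosome 17, bases 46016993 to 46032377), the main growth factor for endothelium, held 108, 104, 103 and 122 TPM in controls 1 to 4. Mutants 1 to 4 held 107, 123, 131 and 104 TPM, with mutants 1 and 4 among the lower controls. The log2 fold change was 0.084 (95% interval -0.098 to 0.27, unadjusted p of 0.324, adjusted p of 0.929), and without control 3 and mutant 3 it was -0.0011. Its receptors were nearly level: Kdr, the main signalling receptor, held 69.8 ± 1.87 TPM in controls and 69.4 ± 1.07 TPM in mutants, and Flt1, which also acts as a decoy, held 24.0 ± 2.60 and 24.4 ± 2.10 TPM (n = 4 each, SD). Vegfb, a related ligand that binds Flt1, had the smallest p of its list, at 115 ± 3.59 and 125 ± 5.66 TPM (log2 fold change 0.12, unadjusted p of 0.0159, adjusted p of 0.780).

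Adm (chromosome 7, bases 110627657 to 110629820), the precursor of the vessel-acting peptide adrenomedullin, was low, at 4.25, 2.99, 3.65 and 5.12 TPM in controls 1 to 4. Mutants 1 to 4 held 3.71, 4.65, 4.42 and 5.13 TPM, so the highest values of the groups were nearly equal. Its log2 fold change was 0.14 with a wide 95% interval, from -0.17 to 0.45 (adjusted p of 0.929). Without control 2, the lowest library, it was 0.039, without mutant 4 it was 0.086, and without control 4 it was 0.24. The receptor genes Calcrl and Ramp2 held 32.2 ± 1.70 and 151 ± 5.84 TPM in controls and 33.1 ± 1.48 and 148 ± 7.17 TPM in mutants. Over the 14 tested genes of VEGF and adrenomedullin signalling, 7 were higher and 7 lower with a median log2 fold change of 0.0014, and 0 passed the adjusted threshold. At an unadjusted p below 0.05 only 1, Vegfb, was higher, as were 2.65% of all tested genes. Next by p were Ramp1, another receptor-modifying protein, at 12.7 ± 0.587 and 14.1 ± 1.30 TPM, the ligand Vegfd at 2.51 ± 0.390 and 2.10 ± 0.501 TPM, and Ackr3, a scavenger receptor, at 56.8 ± 1.34 and 54.2 ± 3.74 TPM (adjusted p of 0.841, 0.895 and 0.896).

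Bnip3 (chromosome 7, bases 138890836 to 138909506) encodes a mitochondrial outer membrane protein that recruits the autophagy machinery to mitochondria in low oxygen. It was the second most abundant member, with a mean of 173 TPM, above 95.1% of tested genes. Controls 1 to 4 held 166, 154, 144 and 176 TPM, and mutants 1 to 4 held 163, 200, 208 and 170 TPM. Mutants 2 and 3 lay above every control, while mutants 1 and 4 lay between the controls. The log2 fold change was 0.21 (standard error 0.088, 95% interval 0.012 to 0.41, unadjusted p of 0.0401, adjusted p of 0.809), and without control 3 and mutant 3 it was 0.10.

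The related receptor Bnip3l held 85.7 ± 3.04 TPM in controls and 87.4 ± 2.57 TPM in mutants (log2 fold change 0.028, adjusted p of 0.947). Relative to Bnip3 it stood at 52.8%, 54.9%, 57.0% and 50.5% in controls 1 to 4 and at 51.8%, 45.3%, 41.8% and 51.3% in mutants 1 to 4. The lowest ratios were those of mutants 2 and 3, and the difference did not pass (exact two-sided permutation p of 0.0857, adjusted 0.129). Of 11 tested genes of receptor-mediated and PINK1-dependent mitophagy, 5 were higher and 6 lower, with log2 fold changes from -0.13 to 0.043. None of them passed the adjusted threshold, and 1 was lower at an unadjusted p below 0.05, as were 3.45% of all tested genes: Pink1, the kinase that marks damaged mitochondria, at 63.0 ± 4.33 and 57.7 ± 3.08 TPM (adjusted p of 0.818). The mitophagy receptor Fundc1 held 16.6 ± 1.26 and 15.1 ± 0.390 TPM, and the autophagy genes Gabarapl1 and Ulk1 held 38.4 ± 1.36 and 21.5 ± 1.02 TPM in controls against 35.9 ± 2.34 and 20.25 ± 1.497 TPM in mutants (adjusted p of 0.841, 0.843 and 0.896).

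Ankrd37 (chromosome 8, bases 45996908 to 46000414), an ankyrin-repeat gene used as a HIF target marker, held 5.60, 5.25, 6.75 and 6.98 TPM in controls 1 to 4. Mutants 1, 2 and 3 held 8.56, 8.03 and 9.12 TPM, above every control, and mutant 4 held 4.93 TPM, below every control. Together these gave a log2 fold change of 0.26 (95% interval -0.12 to 0.63, adjusted p of 0.875), and without mutant 4 it was 0.43 (adjusted p of 0.838). Its annotated span shares 51 bases with Ufsp2 on the opposite strand, which averaged 38.9 TPM.

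Car9 (chromosome 4, bases 43507026 to 43513729), the carbonic anhydrase that regulates pH at the cell surface, was the lowest member, with a mean of 2.99 TPM, above 17.2% of tested genes. Controls 1 to 4 held 3.02, 2.78, 2.82 and 3.17 TPM, and mutants 1 to 4 held 2.93, 2.52, 3.83 and 2.83 TPM. Its log2 fold change was 0.021 (95% interval -0.22 to 0.26, adjusted p of 0.992), and it changed sign to -0.070 without mutant 3. Car9 shares 1722 bases with Arhgef39, at 13.9 to 17.6 TPM in the libraries, and 4 bases with Tpm2, both on the opposite strand. Since the strand setting of the counting is not given in the sources used here, reads of Car9 and of these neighbours cannot be told apart in the shared bases. Features that overlap Hif1a, Egln1, Bnip3 and Adm averaged at most 1.73 TPM, and Epas1, Vhl, Egln3 and Vegfa overlapped none.

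In order of level, Hif1a was followed by Bnip3, Vegfa, Egln1, Epas1, Vhl, Egln3, Ankrd37, Adm and Car9. The neighbours Epas1 and Vhl could not be separated, at means of 24.1 and 24.0 TPM over the 8 libraries, and the ranges of Hif1a (184 to 214 TPM) and Bnip3 (144 to 208 TPM) overlapped. The ranges of Egln3 and Ankrd37, of Ankrd37 and Adm and of Adm and Car9 also overlapped. Those of Bnip3 and Vegfa, of Vegfa and Egln1, of Egln1 and Epas1 and of Vhl and Egln3 were apart.

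For all 10 members the range of values within each genotype was wider than the difference between the group means, and part of this variation was shared by several members. In control 3 all 10 members lay below their own mean of the 8 libraries, and 4 had their lowest value there. In control 4 and in mutant 3, 9 of the 10 lay above their own mean, and 6 members reached their highest value in mutant 3. In control 2, 2 of the 10 lay above their own mean, and in mutant 4 only 1 of the 10, Adm, did. The members with the widest ranges were Egln3 and Ankrd37, whose highest values were 1.85 times their lowest, against 1.16 times for Vhl and 1.17 times for Hif1a.

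**Figure D3:**
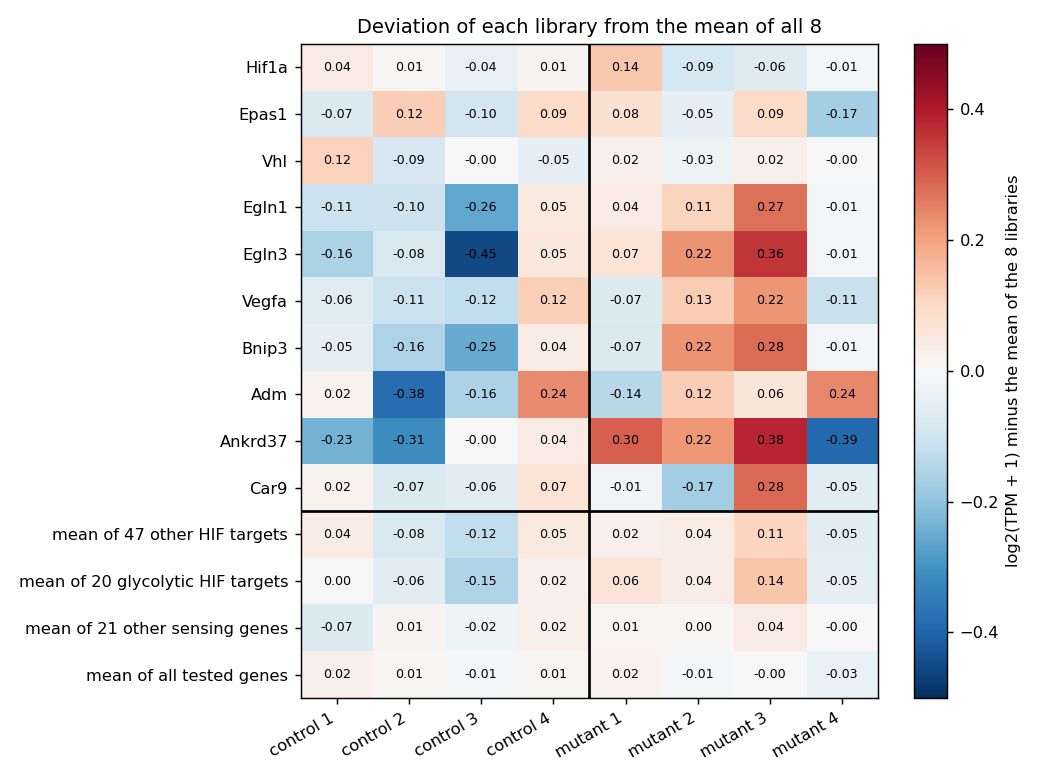
Log2(TPM + 1) of each gene in each library minus its mean over the 8 libraries (colour and printed value), with the mean of 3 other gene lists and of all tested genes below the line. Control 3 is low and mutant 3 high for Egln1, Egln3, Bnip3 and both lists of HIF targets, while the mean of all tested genes stays between -0.032 and 0.024 in every library.

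HIF target genes outside the members were also low in control 3 and high in mutant 3. Of 47 other targets outside glycolysis, 9 (19.1%) lay above their own mean in control 3 and 41 (87.2%) in mutant 3. For 20 glycolytic targets these counts were 0 and 18 (90.0%). For all 15545 tested genes the shares were 43.2% in control 3 and 52.5% in mutant 3. Control 2 was also low: 34.0% of the 47 targets and 1 of the 20 glycolytic ones lay above their own mean. The share of all tested genes there was 50.7%. The shares of the 47 and the 20 targets were 57.45% and 60.0% in control 1, against 60.3% of all tested genes. In mutant 1 they were 57.45% and 85.0%, against 63.8%, and in mutant 2 66.0% and 75.0%, against 44.9%. In control 4, 68.1% of the 47 targets and 65.0% of the glycolytic ones lay above their own mean, against 54.2% of all tested genes. In mutant 4 the share of the 47 targets was 40.4%, near the 41.9% of all tested genes, and 4 of the 20 glycolytic targets lay above their own mean. The 21 other genes of oxygen sensing, which include Arnt, Egln2, Hif1an and Hif3a, gave 38.1% in control 3 and 76.2% in mutant 3. Their share in mutant 1 was also 76.2%. The mitochondrially encoded share of the TPM was highest in control 3, at 15.0%, and ranged from 12.9% to 14.1% in the other libraries. Erythroid markers summed to 4126, 5230, 6415 and 7019 TPM in controls 1 to 4. In mutants 1 to 4 they summed to 4035, 3864, 5464 and 4679 TPM. Their mean log2(TPM + 1) was 7.27 in controls and 7.01 in mutants. The part of these markers in the target values was not tested beyond the use of the marker mean as a covariate. What sets libraries of a genotype apart was not tested, and the labels name nothing that differs between them.

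Across the 8 libraries Egln1 and Egln3 tracked each other most closely among the members. The Pearson correlation of log2(TPM + 1) between Egln1 and Egln3 was 0.981 (Spearman 0.976), it was 0.963 with the group means taken out, and 0.959 over the 6 libraries left without control 3 and mutant 3. Among 11626 genes with a mean of at least 5 TPM, Egln3 ranked 1 in likeness to Egln1, and Egln1 ranked 3 in likeness to Egln3. Vegfa and Bnip3 correlated at 0.896 (Spearman 0.857, and 0.670 without mutants 2 and 3), and Egln1 and Bnip3 at 0.926 (Spearman 0.881, and 0.793 without control 3 and mutant 3). Hif1a correlated negatively with these targets, at -0.472 with Bnip3 (Spearman -0.429) and -0.473 with Vegfa (Spearman -0.238). The Hif1a levels were lowest in mutants 2 and 3, where Bnip3 and Vegfa were highest. Control 3 had the next lowest Hif1a, at 190 TPM, and the lowest Bnip3 and Vegfa, at 144 and 103 TPM. Without mutants 1 and 2, the libraries farthest from the Hif1a median, Hif1a correlated at -0.368 with Bnip3 and -0.397 with Vegfa. These values describe 8 libraries in which all genes share the library, its depth and its scaling, and they carry no test.

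**Figure D4:**
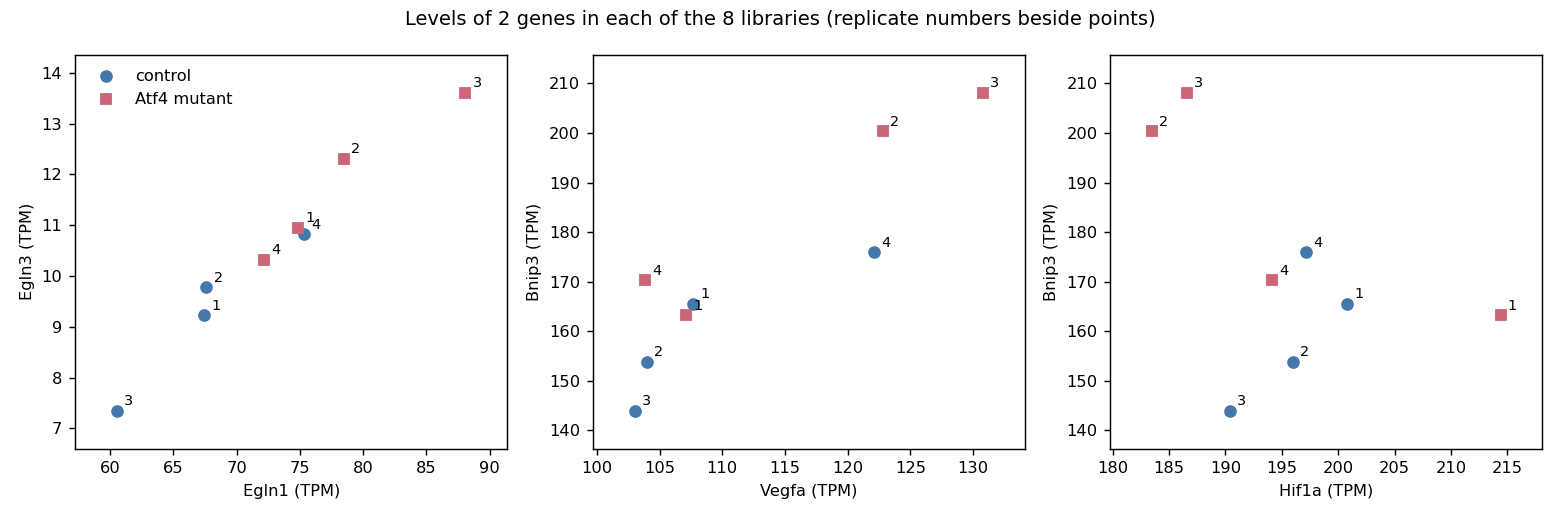
Levels in TPM of Egln1 and Egln3 (left), Vegfa and Bnip3 (middle) and Hif1a and Bnip3 (right), 1 point per library, circles for controls and squares for Atf4 mutants, with replicate numbers. Libraries high in Egln1 are also high in Egln3 in both groups, and the axes do not start at 0.

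The genes most like a member over the 8 libraries were found by the same measure. For Bnip3 they were Kdm3a (Pearson 0.979), Isca1 (0.961) and Cenpl (0.948). Kdm3a encodes a histone demethylase that is itself a known HIF target. It held 33.3 ± 1.96 TPM in controls and 36.4 ± 2.04 TPM in mutants (n = 4 each, SD, log2 fold change 0.12, unadjusted p of 0.0506, adjusted p of 0.821). For Vegfa the nearest were Upf1 (0.972), Bicral (0.958) and Cenpl (0.950), and for Hif1a Nup62 (0.962), Tmem144 (0.961) and Trp53bp1 (0.957). All of these were picked as the highest of 11626 correlations over 8 libraries, a choice that by itself favours high values. Whether any of them shares regulation with a member was not tested.

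The lists of the wider pathway were read from the same fit. Among the 47 tested HIF targets outside glycolysis that are not members, 31 were higher and 16 lower in the mutants (66.0% higher, against 48.2% of all tested genes), with a median log2 fold change of 0.056. Many of them also moved together by library, with 19.1% above their own mean in control 3 and 87.2% in mutant 3. These directions are thus not separate observations. None of the 47 had an adjusted p below 0.05, while 4 were higher and 2 lower at an unadjusted p below 0.05. At that level 2.65% of all tested genes were higher and 3.45% lower. The smallest p belonged to Rragd, a Rag GTPase that acts in mTORC1 signalling, at 65.5 ± 1.72 TPM in controls and 74.0 ± 2.12 TPM in mutants (log2 fold change 0.17, adjusted p of 0.470), with every mutant above every control. Ak4, a mitochondrial adenylate kinase, held 23.9 ± 2.31 and 28.6 ± 2.24 TPM (adjusted p of 0.780). P4ha1, a collagen prolyl hydroxylase subunit, held 40.0 ± 2.09 and 45.0 ± 2.98 TPM (adjusted p of 0.780). Ppfia4, a liprin gene, was lower in the mutants, at 23.9 ± 0.756 and 21.5 ± 1.07 TPM (adjusted p of 0.780, SD, n = 4 each), with every mutant below every control.

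In the list of other oxygen-sensing genes, all 21 were tested, with 14 higher and 7 lower, a median log2 fold change of 0.034 and 0 past the adjusted threshold (2 higher at an unadjusted p below 0.05). Over all tested genes 48.2% were higher, and 2.65% were higher at that unadjusted level. Cited4, which competes for the coactivators p300 and CBP, held 18.6 ± 0.902 TPM in controls and 21.2 ± 0.939 TPM in mutants (log2 fold change 0.18, adjusted p of 0.743), without overlap of the groups. Eloc, a subunit of the VHL ubiquitin ligase, held 91.0 ± 9.20 and 103 ± 5.82 TPM (adjusted p of 0.809). P4htm, a membrane-bound prolyl hydroxylase, held 12.9 ± 0.420 and 11.6 ± 0.948 TPM (adjusted p of 0.821), and Siah2, a ubiquitin ligase for the hydroxylases, 9.53 ± 1.17 and 10.9 ± 0.964 TPM (adjusted p of 0.843). Of the 20 glycolytic targets 19 were higher, with a median log2 fold change of 0.081 against 0.11 for the members, and 0 passed (4 higher at an unadjusted p below 0.05). Those 4 were the hexokinase gene Hk2, the glucose transporters Slc2a3 and Slc2a1 and the lactate exporter Slc16a3, at log2 fold changes of 0.24, 0.26, 0.16 and 0.24 in that order (adjusted p from 0.759 to 0.809). The glycolytic targets moved together by library, with 0 of the 20 above their own mean in control 3 and 1 in control 2. Their directions are therefore not separate observations.

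The tissue label was checked against markers, since the extraction text attached to the samples speaks of cortical neurons. All 10 genes listed for ventricular cardiomyocytes were present, with Myl2 at a mean of 11300 TPM. No list of atrial markers was examined, so this check does not separate ventricle from whole heart. Of 7 neuronal markers 4 averaged below 1 TPM, with Snap25 the lowest at 0.029 TPM. The other 3 were Tubb3 at 8.84 TPM, Elavl4 at 1.46 TPM and Stmn2 at 1.34 TPM. Of 6 hepatocyte markers 5 averaged below 1 TPM. Macrophage markers were low in all libraries and summed to 18.6, 15.5, 12.8 and 9.40 TPM in controls 1 to 4. Mutants 1 to 4 held 8.81, 5.18, 7.85 and 10.4 TPM, so mutants 1, 2 and 3 lay below every control. The difference in mean log2(TPM + 1), mutant minus control, was -0.46, the largest among the marker lists. The part of macrophage markers in the member values was not tested.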

How the data were processed

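Values are TPM as deposited by the authors, 1 column per library in 1 table; per the submitters' processing notes the tools included Trim Galore 0.6.7, HISAT2 2.2.1, StringTie 2.2.1, featureCounts and DESeq2, and the builds GRCm38 and mm10, with no roles given. The annotation and strand setting are not given in the sources used here. The labels disagree on RNA extraction and on poly(A) selection or ribosomal depletion. TPM summed to 923473 to 949762 per library and keeps no depth, so no counting interval is given. Member coordinates are those of the table, equal to RefSeq GRCm38.p6 for all 10.

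The 15545 genes that reached 1 TPM in 4 or more of the 8 libraries were compared as log2(TPM + 1), a scale that understates changes of low genes, in limma 3.58.1 (R 4.3.3) with a variance trend and no covariate, two-sided, Benjamini-Hochberg at 0.05. The fit was tested on simulated data. Ratios were compared by exact permutation over 70 assignments (Python 3.11.15). All members are named, with Atf4, chosen partners, and the 4 smallest p-values or all genes past the threshold of each pathway list. Nearest genes are the 3 with the highest Pearson correlation. The members and lists were chosen with earlier results of these data known. Alternatives were other pseudocounts, filters and scalings, no trend, library weights, the replicate block, marker covariates and libraries left out.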

Additional observations from a re-analysis of the deposited data

Results flagged for a closer look

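Groups of 4 libraries were examined 42 times, over the members, the 3 ratios and the marker lists, for a single library lying far from the other 3. This happened 1 time, against 2.1 expected by chance at a rate of 1 in 20. The mean log2(TPM + 1) of the 10 endocardial and endothelial markers was 6.42 in control 2, against 6.28 to 6.30 in the other controls. Epas1 also had its highest value in that library, at 26.3 TPM, and without it the log2 fold change of Epas1 was 0.012 in place of -0.025. No member had a library that stood apart from its group in this way.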

How the results depend on the processing

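All alternatives were planned except leaving out control 3 and mutant 3 together, which was chosen after the values were seen. In none of the 20 alternatives did a member pass the adjusted threshold, a count of 0 in each. Egln1, Egln3, Bnip3, Adm and Ankrd37 had higher means in the mutants in every alternative that tested them, with log2 fold changes down to 0.10, 0.15, 0.10, 0.039 and 0.17. Members with higher means numbered 6 to 9. The 3 members at an unadjusted p below 0.05 became 0 with the replicate block and 0 without control 3 and mutant 3 together, and 0 to 4 with 1 library left out (0 without control 3 or without mutant 3, 1 without mutant 2). Over all genes the 6 calls became 0 with no filter, no variance trend, the replicate block or the erythroid covariate, 3 with the endothelial covariate, 0 without control 3 and mutant 3 together, and 0 to 3 with 1 library left out. Signs changed where differences were near 0. The erythroid covariate gave Epas1 0.0063 and Vhl -0.018. Leaving out control 2 gave 0.012 and -0.015, and leaving out control 4 gave 0.0027 and -0.0038. Epas1 was 0.028 without mutant 4, Hif1a was 0.015 without mutant 2 and 0.0066 without mutant 3, and Car9 was -0.070 without mutant 3. Without control 3 and mutant 3 together, Vegfa was -0.0011 and Car9 -0.086. The log2 difference of the Epas1 to Hif1a ratio, -0.013, ranged from -0.070 to 0.042 with 1 library left out, at 0.026 without control 2, 0.013 without control 4, 0.0040 without mutant 1 and 0.042 without mutant 4. The log2 difference of the Egln3 to Egln1 ratio, 0.14, ranged from 0.082 to 0.17, with p of 0.250 under the replicate block. Adm reached at most 0.24. The Atf4 call was kept in 6 alternatives and lost in 14, at adjusted p of 0.0164 to 0.354 over all of them. Deviations from the group means correlated at -0.082 to 0.035 between same-numbered libraries and at -0.054 to 0.057 between the other pairs. These correlations cannot tell whether libraries of the same number shared a litter or a processing step. Over all alternatives Hif1a lay between -0.060 and 0.015, Epas1 between -0.096 and 0.028, Vhl between -0.018 and 0.052, Vegfa between -0.0011 and 0.14 and Car9 between -0.086 and 0.089, where leaving out 1 library gave Car9 at most 0.082. Adm and Car9 were not tested at a filter of 5 TPM.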
